A study of Mus musculus with 9 samples.

Results

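The Cyp3a family of mouse liver was described through 7 genes, Cyp3a11, Cyp3a13, Cyp3a16, Cyp3a25, Cyp3a41a, Cyp3a44 and Cyp3a59, chosen by symbol from 24532 genes. Each was measured by RNA sequencing of 9 liver samples of wild-type C57BL/6 mice, a common inbred laboratory strain. Every mouse had received thioacetamide (TAA), a toxin that hepatocytes convert to reactive products and that scars the liver, by intraperitoneal injection at an escalating dose over 10 weeks. The groups of 3 libraries each were TAA with recombinant human cytoglobin (rhCYGB), an oxygen-binding globin, at 2 mg/kg intravenously during the last 5 weeks (rhCYGB 5 weeks, replicates 23, 27 and 28), the same dose during the last 2 weeks (rhCYGB 2 weeks, replicates 17, 18 and 19), and TAA with saline (TAA, replicates 12, 13 and 14). Livers without TAA were not analysed here, so all values describe damaged liver. The comparisons ask whether rhCYGB given on top of TAA went with other levels of these genes, and whether the length of treatment mattered. Whether the numbered libraries come from different mice is not stated in the labels, and the p-values therefore rest on a spread that may be technical.

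CYP3A enzymes are haem proteins of the endoplasmic reticulum that oxidise drugs, steroids and bile acids. They take electrons from the reductase Por, and hepatocytes around the central vein carry most of them. Their genes are switched on by the nuclear receptors PXR (Nr1i2) and CAR (Nr1i3), which sense foreign compounds and bile acids and bind paired AGGTCA-like hexamers. In mouse liver, Cyp3a11 is the main adult form of both sexes, Cyp3a41a and Cyp3a44 are female-biased, and Cyp3a16 is a form of fetal and newborn liver. The labels give no sex. Xist, the transcript of the inactive X chromosome, lay between 0 and 0.0926 CPM, and the Y-linked Ddx3y lay between 10.1 and 42.7 CPM in all 9 libraries.

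All 7 genes lie on mouse chromosome 5. The DNA just before the transcription start shows how far the members differ at the place from which they are switched on. The windows below are the 250 bases before the RefSeq start (GRCm38.p6), at chr5:145879855-145880104 (minus strand), chr5:146009619-146009868 (minus strand), chr5:146079008-146079257 (plus strand) and chr5:137921620-137921869 (minus strand). They belong to the most abundant member, to the closest pair of members, and to the member most apart in sequence. Capitals mark the hexamers AGTTCA and AGGTCA on either strand.
Cyp3a11: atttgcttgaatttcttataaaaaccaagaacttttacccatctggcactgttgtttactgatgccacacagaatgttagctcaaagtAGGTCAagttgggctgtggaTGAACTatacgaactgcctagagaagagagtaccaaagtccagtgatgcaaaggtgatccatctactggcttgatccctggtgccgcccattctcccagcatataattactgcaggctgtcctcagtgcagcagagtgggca
Cyp3a25: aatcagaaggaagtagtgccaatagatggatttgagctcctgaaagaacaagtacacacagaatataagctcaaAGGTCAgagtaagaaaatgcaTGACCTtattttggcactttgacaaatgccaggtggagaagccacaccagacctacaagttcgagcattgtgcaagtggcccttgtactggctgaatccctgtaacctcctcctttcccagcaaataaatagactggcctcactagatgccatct
Cyp3a59: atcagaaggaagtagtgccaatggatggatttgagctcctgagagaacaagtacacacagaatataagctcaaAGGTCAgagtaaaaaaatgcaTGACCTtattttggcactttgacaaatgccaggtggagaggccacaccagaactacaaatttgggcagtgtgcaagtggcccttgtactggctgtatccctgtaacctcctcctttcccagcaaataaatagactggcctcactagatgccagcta
Cyp3a13: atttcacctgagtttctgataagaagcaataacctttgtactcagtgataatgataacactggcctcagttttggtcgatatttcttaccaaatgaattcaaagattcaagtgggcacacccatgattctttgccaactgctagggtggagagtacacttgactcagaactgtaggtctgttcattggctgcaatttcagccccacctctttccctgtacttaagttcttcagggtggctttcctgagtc
The windows of Cyp3a25 and Cyp3a59 were 94.8% identical, and both held AGGTCA followed by its reverse complement TGACCT. The windows of Cyp3a11 and Cyp3a25 were 52.7% identical, and Cyp3a11 held AGGTCA and, on the other strand, AGTTCA. Cyp3a44 held 1 AGGTCA and Cyp3a41a 1 AGTTCA, whereas neither hexamer was found in the windows of Cyp3a13 and Cyp3a16. Over 32817 mouse promoter windows of the same length, AGGTCA occurred in 14%, AGTTCA in 11.9%, and 2 or more of them together in 3.71%. A further 5 patterns were searched on both strands. TATAAA was found in Cyp3a11, Cyp3a16, Cyp3a41a and Cyp3a44 (12.4% of all windows), and the C/EBP core TTGCNNAA, which does not overlap the capitals, in Cyp3a25 alone of the members (9.57%). The exact PXR elements ER6 (TGAACT and AGGTCA with 6 bases between) and DR3 (AGTTCA repeated with 3 bases between), which would contain the hexamers, occurred in 0 of all windows. The HNF1 pattern (GTTAAT and ATTAAC with 1 base between) occurred in 3 of them and in no member. A match to these letters is a description of the window and not a binding site.

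The coding sequences fall into branches that also decide how well reads can be told apart. Cyp3a11 was 95.2% identical to Cyp3a41a, 94.9% to Cyp3a44 and 92.8% to Cyp3a16. Cyp3a25 was 97.5% identical to Cyp3a59, and Cyp3a13 was 75.2% to 76.8% identical to every other member. Of all 100-base windows of its transcript, Cyp3a41a shared 90.8% with another Cyp3a gene, mostly Cyp3a41b, whose coding sequence is 99.9% identical. That share was 5.6% for both Cyp3a25 and Cyp3a59, 2.8% for Cyp3a44, 0.3% for Cyp3a11, 0.1% for Cyp3a16 and 0.0% for Cyp3a13. Single values of Cyp3a41a are therefore uncertain, those of the close pairs less so, and the family sum keeps reads that could fall to either of 2 members.

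**Figure D1:**
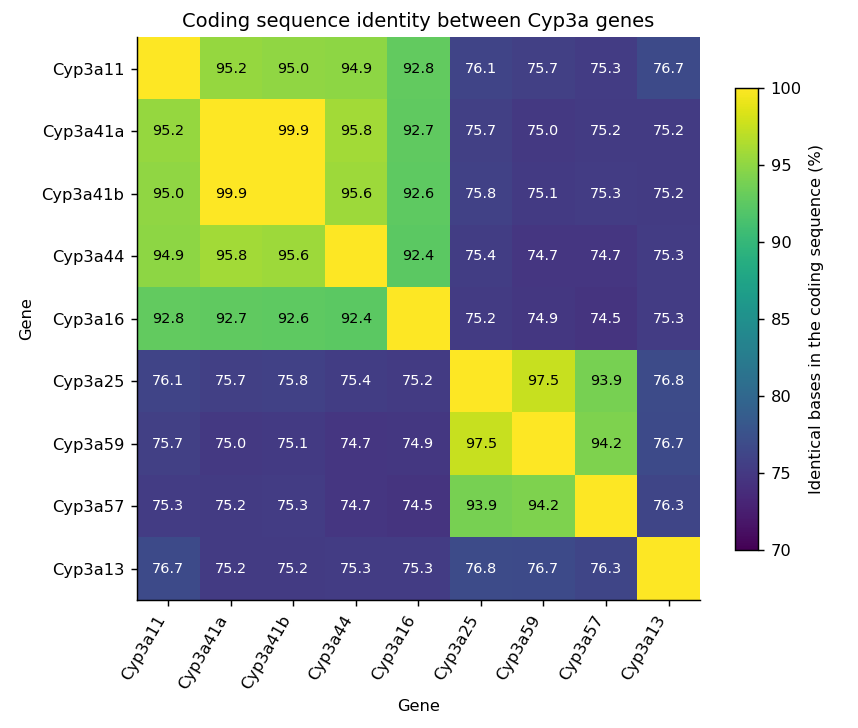
Percent identity of the coding sequences of the Cyp3a genes, each cell giving 1 pair. Cyp3a11, Cyp3a16, Cyp3a41a and Cyp3a44 form a group, Cyp3a25 and Cyp3a59 a pair at 97.5%, and Cyp3a13 stands at 75.2% to 76.8% from every other member.

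The members spanned a wide range of levels, led by Cyp3a11. Per transcript length, in FPKM (fragments scaled to transcript length and library size) averaged over all 9 libraries, Cyp3a11 stood at 3214, which ranked it 20 among 24532 genes and 1 among 99 cytochrome P450 genes. Cyp3a25 followed at 287.6 FPKM, rank 12 among P450 genes, and Cyp3a13 at 63.1 FPKM, rank 25. Cyp3a59 averaged 22.9 FPKM and Cyp3a44 21.4 FPKM, and these neighbours overlapped across libraries. Cyp3a16 averaged 1.11 FPKM and Cyp3a41a 0.553 FPKM, which overlapped as well. The order of the other neighbours held in every library. The 7 genes together took between 0.527% and 1.05% of all estimated reads.

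Cyp3a11, which alone makes up most of the family, was higher on average in both rhCYGB groups, without passing the test. Its level, as CPM after TMM scaling (counts scaled to library size), was 9361, 6865 and 6503 in rhCYGB 5 weeks, 7768, 6019 and 9079 in rhCYGB 2 weeks, and 4123, 6076 and 5017 in TAA. All 3 rhCYGB 5 weeks libraries lay above every TAA library, whereas replicate 18 of rhCYGB 2 weeks lay just under the highest TAA library. Scaled to library totals alone, the 5-week libraries began at 6285 CPM, under the highest TAA library at 7158 CPM, so this separation depends on TMM scaling. In edgeR's quasi-likelihood fit, with p adjusted by the Benjamini-Hochberg method across every gene tested, the difference from TAA was 1.49-fold at 5 weeks (log2 0.58 ± 0.21 SE, adjusted p = 0.180) and 1.50-fold at 2 weeks (log2 0.59 ± 0.21 SE, adjusted p = 0.138).

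The family sum followed Cyp3a11. It was 10716, 7836 and 7413 CPM in rhCYGB 5 weeks, 8620, 6722 and 10118 CPM in rhCYGB 2 weeks, and 4769, 6759 and 5688 CPM in TAA. The means were 8655 ± 1797 CPM in rhCYGB 5 weeks, 8487 ± 1702 CPM in rhCYGB 2 weeks and 5739 ± 996 CPM in TAA (SD, n = 3 each). The sum was 1.51-fold higher than TAA at 5 weeks (log2 0.59 ± 0.21 SE, 95% interval 0.13 to 1.06, adjusted p = 0.165) and 1.48-fold at 2 weeks (log2 0.56 ± 0.21 SE, interval 0.10 to 1.03, adjusted p = 0.143), neither of which passed edgeR's test at 0.05. Without replicate 23, the library with the highest sum, the 5-week difference was 0.39 on the log2 scale. Over all 6 rhCYGB libraries against TAA it was log2 0.58 ± 0.18 SE (edgeR adjusted p = 0.126), and DESeq2 called that comparison at an adjusted p of 0.0303.

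**Figure D2:**
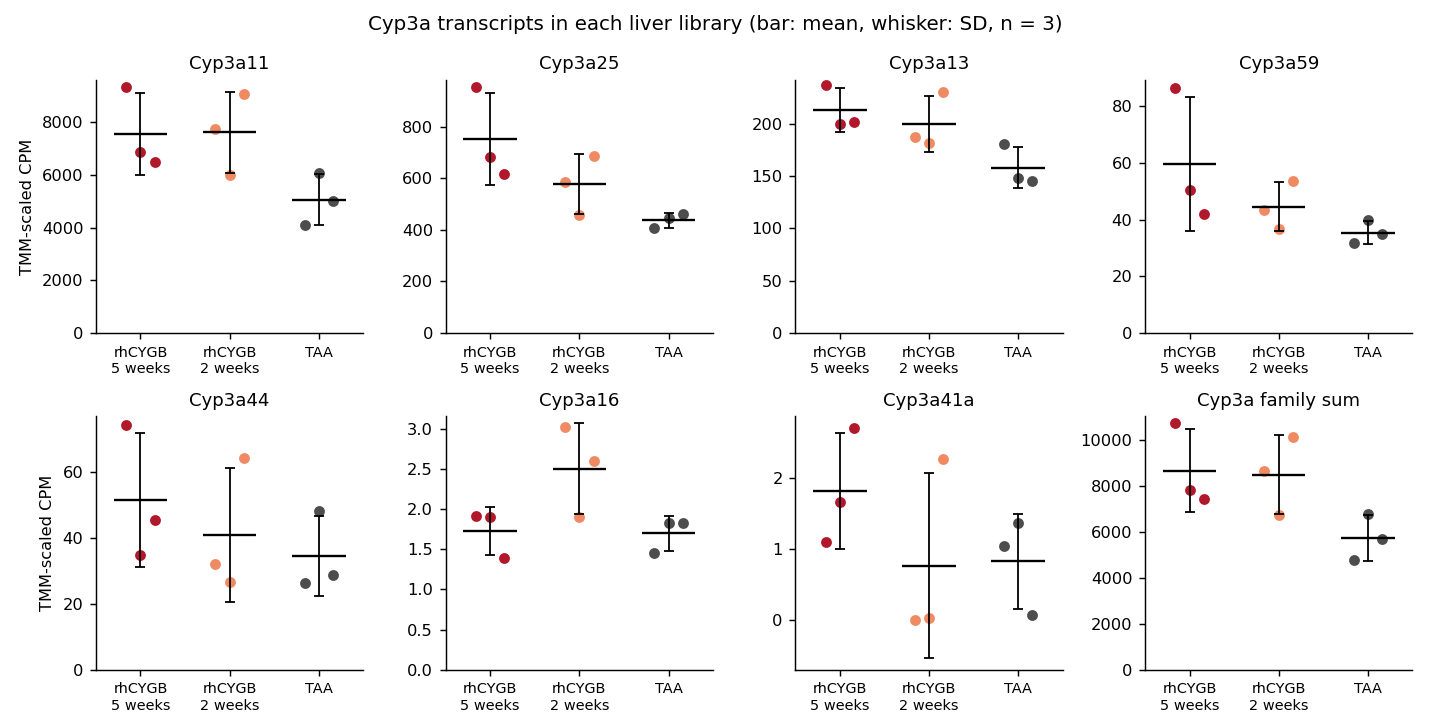
TMM-scaled CPM of each Cyp3a member and of the family sum in each library (points), with group mean and SD (n = 3 each), for rhCYGB 5 weeks, rhCYGB 2 weeks and TAA from left to right. Each panel has its own axis, and replicate 23 is the highest rhCYGB 5 weeks library for Cyp3a11, Cyp3a25, Cyp3a59 and Cyp3a44.

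Cyp3a25, a second adult liver form, had the lowest p of the members at 5 weeks. Its level was 954, 683 and 617 CPM in rhCYGB 5 weeks, 586, 457 and 686 CPM in rhCYGB 2 weeks, and 405, 444 and 460 CPM in TAA. The 5-week libraries all lay above TAA, and 1 of the 2-week libraries fell inside the TAA range. The 5-week difference was 1.72-fold (log2 0.78 ± 0.19 SE, edgeR adjusted p = 0.0750), and DESeq2 called it with an adjusted p of 0.00564. With single libraries left out it ran from log2 0.56 to 0.91, and replicate 23 was well over the other 5-week libraries. The 2-week difference was log2 0.40 ± 0.19 SE (edgeR adjusted p = 0.238).

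Cyp3a59, whose coding sequence is nearly that of Cyp3a25, ran alongside it. Its level was 86.7, 50.4 and 41.9 CPM in rhCYGB 5 weeks, 43.4, 36.7 and 53.8 CPM in rhCYGB 2 weeks, and 31.7, 39.8 and 34.9 CPM in TAA. The 5-week libraries again lay above TAA, with replicate 23 far over the other two, and the 2-week libraries overlapped TAA. At library total CPM the 5-week group overlapped TAA as well, with a lowest value of 43.4 CPM against a highest TAA value of 46.9 CPM. The difference was log2 0.75 ± 0.26 SE at 5 weeks (edgeR adjusted p = 0.159), and log2 0.36 without replicate 23. At 2 weeks it was log2 0.33 ± 0.26 SE (edgeR adjusted p = 0.447), and −0.01 on the log2(FPKM + 1) scale.

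Cyp3a13, the member most apart in sequence, had 237, 199.7 and 201.7 CPM in rhCYGB 5 weeks, 187, 181 and 229.9 CPM in rhCYGB 2 weeks, and 180, 148 and 145 CPM in TAA. On the TMM scale it was the only member whose rhCYGB libraries all lay above every TAA library in both groups. At library total CPM it overlapped TAA in both, with 183 to 232 CPM in rhCYGB 5 weeks, 158 to 222 CPM in rhCYGB 2 weeks and 164 to 199 CPM in TAA. The differences were small, log2 0.43 ± 0.14 SE at 5 weeks (edgeR adjusted p = 0.148) and log2 0.34 ± 0.14 SE at 2 weeks (edgeR adjusted p = 0.191), the 2-week one being 0.0012 in the alternative where it was lowest.

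Of the female-biased members, Cyp3a44 stood at a level like that of Cyp3a59, and Cyp3a41a was the lowest of the family on average. Cyp3a44 had 74.2, 34.8 and 45.6 CPM in rhCYGB 5 weeks, 32.2, 26.6 and 64.2 CPM in rhCYGB 2 weeks, and 26.3, 48.3 and 28.8 CPM in TAA. Its groups overlapped, and the differences from TAA were log2 0.58 ± 0.39 SE at 5 weeks and 0.25 ± 0.39 SE at 2 weeks (edgeR adjusted p = 0.447 and 0.716), the 5-week one being 0.21 without replicate 23 and the 2-week one −0.07 under scaling by library totals. Cyp3a41a had 71, 86 and 177 estimated reads in rhCYGB 5 weeks, 0, 3 and 124 in rhCYGB 2 weeks, and 64, 93 and 6 in TAA. It was at or near 0 in 1 TAA and 2 rhCYGB 2 weeks libraries, and its log2 difference from TAA was 1.14 ± 1.31 SE at 5 weeks and −0.12 ± 1.33 SE at 2 weeks (edgeR adjusted p = 0.688 and 0.965). Leaving out single libraries moved the 2-week value between −5.06 and 0.46.

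Cyp3a16, the fetal and newborn form, had 1.91, 1.89 and 1.39 CPM in rhCYGB 5 weeks, 3.02, 1.90 and 2.59 CPM in rhCYGB 2 weeks, and 1.45, 1.82 and 1.83 CPM in TAA. The 2-week libraries lay just above TAA, while the 5-week libraries overlapped it. The differences were log2 0.03 ± 0.24 SE at 5 weeks (edgeR adjusted p = 0.972), which was −0.20 under scaling by library totals, and 0.55 ± 0.24 SE at 2 weeks (edgeR adjusted p = 0.206).

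Counted together, 0 of 7 members passed edgeR's test at 5 weeks, where 1.29% of 14731 tested genes passed, and 0 of 7 at 2 weeks, where 3.31% passed. All 7 members were tested. At an unadjusted p under 0.05 there were 4 members at 5 weeks and 3 at 2 weeks, against 19.2% and 23.4% of all genes in those comparisons. DESeq2 called 1 member at 5 weeks, Cyp3a25, where it called 8.06% of all genes, and 0 at 2 weeks, where it called 11.6%. The log2 difference was above 0 for 7 of 7 members at 5 weeks, with a median of 0.58 against 0.01 over all genes, and for 6 of 7 at 2 weeks, with a median of 0.34 against −0.03. On the TMM scale the libraries lay wholly above TAA for 4 of 7 members at 5 weeks, against 11.6% of all genes, and for 2 of 7 at 2 weeks, against 17.3%. At library total CPM this held for 1 of 7 at 5 weeks, Cyp3a25, against 3.24% of all genes, and for 0 of 7 at 2 weeks, against 4.65%. Both comparisons share the TAA libraries, so their values are not independent. Scaling by library totals moved the median of all genes by −0.22 at 5 weeks and −0.33 at 2 weeks, and the family sum was then 0.37 and 0.23 above TAA on the log2 scale.

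No difference by length of rhCYGB treatment was detected for the sum. Between rhCYGB 5 weeks and rhCYGB 2 weeks the sum differed by log2 0.03 ± 0.21 SE, with an interval of −0.43 to 0.49 (edgeR adjusted p = 0.943). All members overlapped between these groups, where 21.1% of all genes did not. EdgeR called 0 of 7 members and 0.0204% of all genes. At an unadjusted p under 0.05 there were 0 members and 23.2% of all genes, and DESeq2 called 0 members and 5.35% of all genes. The values farthest from 0 among members with reads in every library were −0.53 ± 0.24 SE for Cyp3a16 and 0.42 for Cyp3a59, whose interval ran from −0.15 to 0.99. Over any rhCYGB against TAA, edgeR called 0 of 7 members (2% of all genes), 1 member, Cyp3a13, lay wholly above TAA (5.47% of all genes), 4 had an unadjusted p under 0.05 (17.8% of all genes), and DESeq2 called 1, Cyp3a11, at an adjusted p of 0.0327 (8.35% of all genes).

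**Figure D3:**
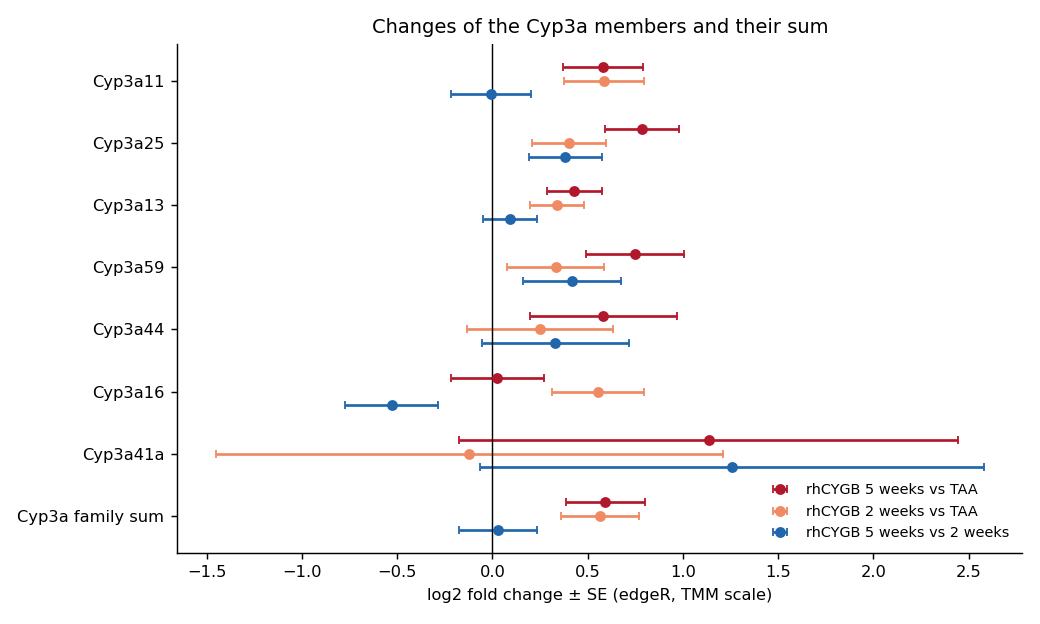
Log2 difference of each member and of the family sum from edgeR, with bars of 1 SE to each side, for the comparisons of the rhCYGB and TAA groups. The 5-week values against TAA lie between 0.03 and 1.14, and Cyp3a41a has the largest SE.

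The make-up of the family pool was led by Cyp3a11 in every library. Cyp3a11 held 87.7%, 88.0% and 88.2% of the summed FPKM in rhCYGB 5 weeks, 90.5%, 90.1% and 90.1% in rhCYGB 2 weeks, and 87.2%, 90.3% and 88.7% in TAA. Cyp3a25 held 9.17%, 8.99% and 8.60% in rhCYGB 5 weeks, 7.02%, 7.02% and 6.997% in rhCYGB 2 weeks, and 8.80%, 6.77% and 8.34% in TAA. The rhCYGB groups did not overlap for either gene, nor for the shares of Cyp3a16 and Cyp3a59. The shares of Cyp3a13, Cyp3a44 and Cyp3a41a overlapped. On the TMM scale 21.1% of all genes did not overlap between these groups, and the shares are parts of a single sum. TAA replicate 13 lay with the 2-week libraries for Cyp3a25. Cyp3a25 stood at 10.5, 10.2 and 9.74 FPKM per 100 FPKM of Cyp3a11 in rhCYGB 5 weeks, at 7.75, 7.79 and 7.76 in rhCYGB 2 weeks, and at 10.1, 7.50 and 9.40 in TAA. For all rhCYGB libraries against TAA, a two-sided exact permutation test gave p = 0.714 for the share of Cyp3a11 and 0.857 for that of Cyp3a25, both 0.976 after adjustment over 7 members, where the smallest possible p was 0.0238. That test pooled rhCYGB groups whose mean shares of both genes lay on opposite sides of the TAA mean. Opposite differences cancel in it, so it cannot decide on a change of share within either group.

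**Figure D4:**
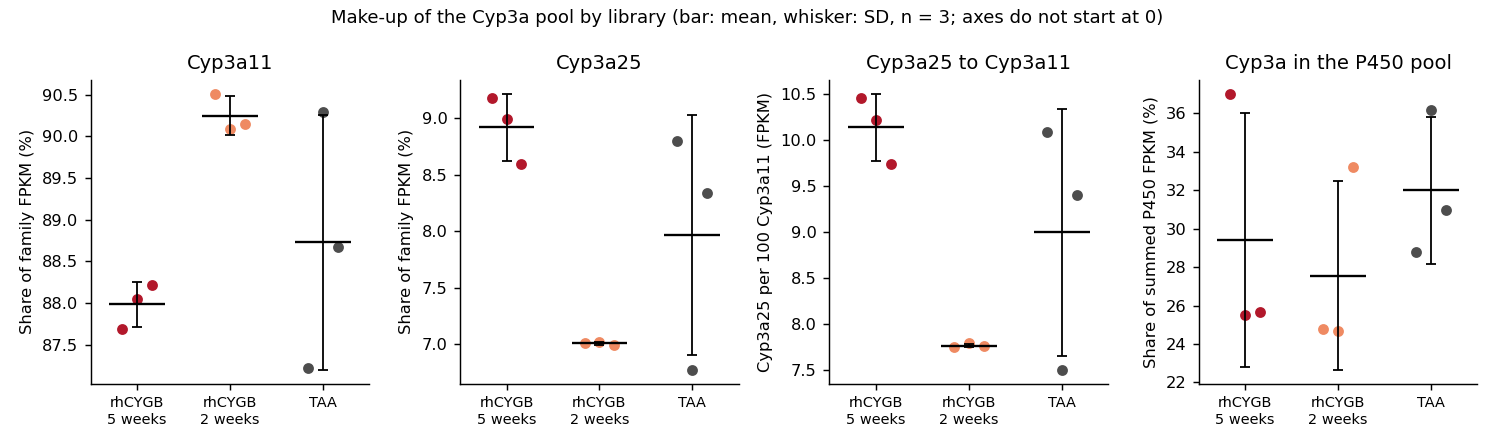
Share of the summed Cyp3a FPKM held by Cyp3a11 and Cyp3a25, Cyp3a25 per 100 FPKM of Cyp3a11, and the share of the Cyp3a members in the summed P450 FPKM (points, with group mean and SD, n = 3 each; axes do not start at 0), in each library of rhCYGB 5 weeks, rhCYGB 2 weeks and TAA. The 3 rhCYGB 2 weeks libraries sit close together at 6.997% to 7.02% for Cyp3a25, under the 8.60% to 9.17% of rhCYGB 5 weeks.

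The share of the family among all P450 genes overlapped between the groups. The Cyp3a members made up 37.0%, 25.5% and 25.7% of the FPKM of 99 P450 genes in rhCYGB 5 weeks, 24.8%, 24.7% and 33.2% in rhCYGB 2 weeks, and 28.8%, 36.2% and 31.0% in TAA. The P450 pool itself summed to 13530, 13409 and 14269 FPKM in rhCYGB 5 weeks, 13966, 11731 and 14041 FPKM in rhCYGB 2 weeks, and 8718, 10534 and 9867 FPKM in TAA. Every rhCYGB library lay above every TAA library in that pool, which includes the Cyp3a members. Among all genes, 5.47% lay above TAA in every rhCYGB library on the TMM scale, which is not the FPKM scale of the pool. The scale matters to such a share. At 5 weeks 11.6% of all genes lay above TAA on the TMM scale and 3.24% at library total CPM. In bulk liver, more hepatocytes and more RNA per hepatocyte cannot be told apart.

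Some genes of the receptors upstream of the family passed the test with all 9 libraries in the fit, though leaving out a single library lost several of these calls. Nr1i3, encoding CAR, had 73.1, 80.3 and 76.2 CPM in rhCYGB 5 weeks, 53.4, 59.0 and 48.8 CPM in rhCYGB 2 weeks, and 38.6, 49.0 and 48.6 CPM in TAA. It rose 1.69-fold over TAA at 5 weeks (log2 0.75 ± 0.13 SE, edgeR adjusted p = 0.0406) and stood at log2 0.24 ± 0.13 SE at 2 weeks (edgeR adjusted p = 0.285). Nr1i2, encoding PXR, had 89.4, 80.8 and 75.3 CPM in rhCYGB 5 weeks, 114.2, 106.8 and 87.8 CPM in rhCYGB 2 weeks, and 61.8, 53.0 and 55.3 CPM in TAA. All rhCYGB libraries were above TAA for Nr1i2, which passed edgeR's test at 2 weeks (adjusted p = 0.0240) and not at 5 weeks (log2 0.53 ± 0.13 SE, adjusted p = 0.0813). Nr0b2, encoding SHP, a repressor that bile acids induce, had 38.6, 50.2 and 35.5 CPM in rhCYGB 5 weeks, 125.3, 146.6 and 65.7 CPM in rhCYGB 2 weeks, and 40.9, 17.9 and 24.3 CPM in TAA. It rose 4.07-fold at 2 weeks (log2 2.02 ± 0.35 SE, edgeR adjusted p = 0.0255). Between 5 and 2 weeks the edgeR adjusted p was 0.153 for Nr1i3 (log2 0.51) and 0.142 for Nr0b2 (log2 −1.44), so neither passed the test of that difference. With each library left out in turn, the call of Nr1i3 at 5 weeks was kept in 1 of 9 fits (adjusted p 0.0483 to 0.165), that of Nr1i2 at 2 weeks in 4 of 9 (0.0133 to 0.117) and that of Nr0b2 at 2 weeks in 5 of 9 (0.0203 to 0.117), always in the same direction. Of its 9 fits, the 1 that kept Nr1i3 left out replicate 27. Under scaling by library totals, Nr1i3 at 5 weeks did not pass (edgeR adjusted p = 0.0661), whereas Nr1i2 and Nr0b2 at 2 weeks did. Of 19 receptors and liver transcription factors listed, 1 rose at 5 weeks and 2 rose at 2 weeks, where 1.29% and 3.31% of all genes passed. Their medians were log2 0.47 and 0.12, against 0.01 and −0.03 over all genes.

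**Figure D5:**
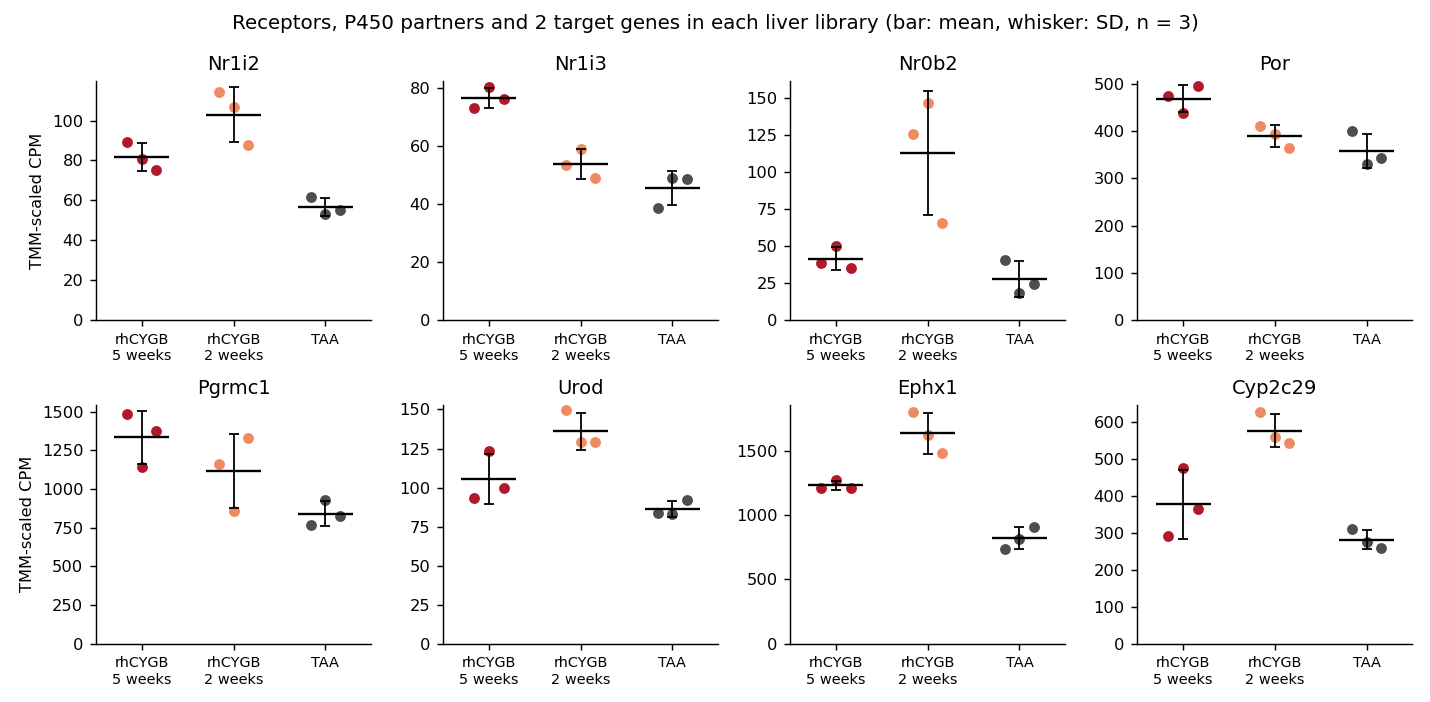
TMM-scaled CPM of 8 genes in each library, with group mean and SD (n = 3 each), for rhCYGB 5 weeks, rhCYGB 2 weeks and TAA. The genes are receptors, P450 partners and 2 targets of CAR and PXR outside Cyp3a. Nr1i3 is highest in rhCYGB 5 weeks at 73.1 to 80.3 CPM, and Nr1i2 and Nr0b2 are highest in rhCYGB 2 weeks.

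Among electron donors and haem synthesis genes, 0 of 14 passed at 5 weeks and 1 rose at 2 weeks, where 1.29% and 3.31% of all genes passed. Por, the reductase that feeds electrons to all microsomal P450 enzymes, had log2 0.39 ± 0.12 SE at 5 weeks and 0.12 ± 0.12 SE at 2 weeks (edgeR adjusted p = 0.121 and 0.540). Urod, an enzyme of haem synthesis, rose 1.58-fold at 2 weeks (edgeR adjusted p = 0.0369, kept in 2 of 9 fits with a library left out). Its call was lost under scaling by library totals (edgeR adjusted p = 0.0851). Pgrmc1, a haem-binding partner of P450 enzymes, was at log2 0.66 ± 0.17 SE at 5 weeks (edgeR adjusted p = 0.0878).

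Some other targets of CAR and PXR passed the test at 2 weeks. Of 24 listed targets outside Cyp3a, 0 passed edgeR's test at 5 weeks and 8 rose at 2 weeks, where 1.29% and 3.31% of all genes passed. The log2 difference was above 0 for 24 of 24 at 5 weeks and 19 of 24 at 2 weeks. The medians were log2 0.59 and 0.60, against 0.01 and −0.03 over all genes. The epoxide hydrolase Ephx1 had 1804, 1621 and 1484 CPM in rhCYGB 2 weeks and 733.9, 817.6 and 905.6 CPM in TAA, a 2.00-fold rise (edgeR adjusted p = 0.0154, kept in 4 of 9 fits with a library left out). Its 5-week value was log2 0.59 ± 0.12 SE (edgeR adjusted p = 0.0548). Among male-biased liver genes, 2 of 17 rose at 5 weeks and 4 of 17 at 2 weeks, including the P450 gene Cyp2d9 at 1.87-fold and 1.77-fold (kept in 1 of 9 and 4 of 9 fits with a library left out), and among female-biased genes outside Cyp3a 0 of 12 passed in either comparison. The members of these lists that rose include close copies, whose single values are uncertain.

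Of the summed cell type markers described here, those of stellate cells lay apart from TAA in both rhCYGB groups, and those of hepatocytes overlapped TAA in both. The summed level of 11 hepatocyte markers was 142140 to 187320 CPM in rhCYGB 5 weeks, 144450 to 189540 CPM in rhCYGB 2 weeks and 131310 to 146520 CPM in TAA. Much of it was Alb, with 85300 of 144450 CPM in rhCYGB 2 weeks replicate 19. Of these 11 markers, 0 passed at 5 weeks and 1, Rbp4, rose at 2 weeks, where 1.29% and 3.31% of all genes passed. The Rbp4 call was kept in 3 of 9 fits with a library left out, and lost under scaling by library totals (edgeR adjusted p = 0.0509). The log2 difference was above 0 for 7 of 11 at 5 weeks and 11 of 11 at 2 weeks. The medians were 0.20 and 0.32, against 0.01 and −0.03 over all genes. The summed level of 12 stellate cell and myofibroblast markers was 398 to 861 CPM in rhCYGB 5 weeks, 535 to 941 CPM in rhCYGB 2 weeks and 1396 to 2089 CPM in TAA. Of these, 2 of 12 fell at 5 weeks and 3 of 12 fell at 2 weeks. On the TMM scale the summed levels of zonal genes lay above TAA for both lobule zones. Scaling by library totals was not applied to the sums of these lists. It moved the median of all genes by −0.22 at 5 weeks and −0.33 at 2 weeks. The summed level of 15 pericentral genes, the zone where CYP3A enzymes are found, was 2893 to 4100 CPM in rhCYGB 5 weeks, 2790 to 2985 CPM in rhCYGB 2 weeks and 1709 to 2212 CPM in TAA. That of 14 periportal genes was 15023 to 16735 CPM in rhCYGB 5 weeks, 14838 to 15622 CPM in rhCYGB 2 weeks and 10902 to 11814 CPM in TAA. Much of the pericentral sum was Cyp2e1, with 2152 of 4100 CPM in rhCYGB 5 weeks replicate 27. Of the pericentral genes, 13 of 15 were above TAA at 5 weeks and 10 of 15 at 2 weeks by log2 difference. Of the periportal genes, these were 10 of 14 and 11 of 14, so neither zone moved as a whole. At 5 weeks 1 of 15 pericentral genes rose, Cyp2e1 at 2.60-fold, and 2 of 14 periportal genes rose, Otc at 1.59-fold and Cyp2f2 at 1.64-fold. These calls were kept in 1 or 2 of 9 fits with a library left out. Library totals as scaling lost Otc and Cyp2f2 (edgeR adjusted p = 0.085 and 0.073) and kept Cyp2e1. Of 11 T and NK cell markers, 0 passed at 5 weeks and 3 rose at 2 weeks, and of 12 macrophage markers 0 passed at 5 weeks, while Clec4f rose and Gpnmb fell at 2 weeks. The call of Clec4f was kept in 2 of 9 fits with a library left out, and that of Gpnmb in 4 of 9. Library totals as scaling lost Clec4f (edgeR adjusted p = 0.0939) and kept Gpnmb. Of 9 cholangiocyte and 12 endothelial markers, 0 passed in either comparison. The part of these cell types in the Cyp3a values was not tested.

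Across the 9 libraries the members went together to different degrees. Pearson's r of log2 CPM was 0.951 between Cyp3a25 and Cyp3a59, 0.868 between Cyp3a11 and Cyp3a25, and 0.827 between Cyp3a44 and Cyp3a59, while Cyp3a16 ranged from −0.366 to 0.617 with the others. The points share libraries, and the 2 genes of the closest pair share some sequence. Among 7857 genes with at least 10 CPM on average, those most like Cyp3a11 were Notum (r = 0.950), Ttc13 (0.948) and Vapb (0.938). Those most like Cyp3a25 were Ggnbp2 (0.980), Gclm (0.963) and Sucla2 (0.962), those most like Cyp3a13 were Pmpcb (0.971), Pon1 (0.971) and Eef2 (0.960), and those most like Cyp3a41a were Ubtf (0.955), Tbc1d22a (0.936) and Nrn1 (0.892). These values describe 9 libraries and carry no test.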

How the data were processed

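RNA of 9 liver samples was sequenced as strand-marked poly(A) libraries read from both ends. FastQC 0.11.7, StringTie 1.3.4d, HISAT2 2.1.0 and the build mm10 are listed in the submitters' processing notes. The values tested were estimated counts of reads per gene, deposited by the authors as whole numbers; how they were made from StringTie output is not given in the sources used here. The authors also deposited FPKM, which was used for levels between genes, for shares and for an alternative. Library totals ran from 55655727 to 87289945 estimated reads. Replicates differed beyond sampling noise, so none was merged. Principal component 1 set replicate 23 apart at one end and replicates 17 and 18 at the other.

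Genes were kept by filterByExpr (minimum count 10, minimum total 15), scaled by TMM and tested with the quasi-likelihood F test of edgeR 4.0.16 in R 4.3.3, all 9 libraries in a single fit with 6 residual degrees of freedom, or 2 groups for any rhCYGB. Calls were made at a Benjamini-Hochberg adjusted p under 0.05 over all genes. The common biological coefficient of variation was 24.9%. The family sum replaced the member rows before filtering. SE is the log2 difference divided by the square root of F. The same steps were tested on simulated data. Alternatives used DESeq2 1.42.0, limma 3.58.1, other scaling, filters and transcript sums. Coding sequences and promoter windows came from the GENCODE and RefSeq tables; promoters were compared with Biopython 1.88. Motifs to search were picked by hand, and the windows printed were picked after their matches were seen.

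The members and gene lists were chosen with earlier results of these data known. Named beside the members were, per list and comparison, up to 4 called genes of lowest p or else the gene of lowest p, of which a selection is printed, plus Nr1i2, Nr1i3, Por and the sex chromosome transcripts, and the 3 genes of highest r for 4 members. The results of 2 genes at 2 weeks are not reported here.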

Additional observations from a re-analysis of the deposited data

Results flagged for a closer look

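For the 2 most abundant members, the mean share of the family FPKM lay on opposite sides of the TAA mean in the rhCYGB groups, by amounts at or under the SD of TAA (1.53 points for Cyp3a11 and 1.06 for Cyp3a25). The mean share of Cyp3a11 differed from that of TAA by -0.746 percentage points in rhCYGB 5 weeks and by 1.52 in rhCYGB 2 weeks. For Cyp3a25 the mean share differed by 0.953 points in rhCYGB 5 weeks and by -0.959 in rhCYGB 2 weeks. Without TAA replicate 13 the 5-week difference of Cyp3a11 was 0.0336 points, so the opposite direction was gone for that gene, and that of Cyp3a25 was 0.355. The rhCYGB groups do not overlap for either share, while the TAA libraries span both. On the TMM scale 21.1% of all genes did not overlap between the rhCYGB groups. The difference in share between the rhCYGB groups was not tested, and the 2 shares are parts of a single sum.

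Reads also appeared at Cyp3a loci that are no members. Cyp3a57 had 4 estimated reads in rhCYGB 5 weeks replicate 28 and 0 in the other 8 libraries. The transcript of Cyp3a41a placed at the locus of Cyp3a41b had 64 estimated reads in rhCYGB 5 weeks replicate 23, 76 in rhCYGB 5 weeks replicate 27 and 116 in rhCYGB 2 weeks replicate 19. It had 0 in rhCYGB 5 weeks replicate 28, 0 and 3 in rhCYGB 2 weeks replicates 17 and 18, and 0, 0 and 5 in the TAA libraries. The other placed copy had 71, 86 and 124 in replicates 23, 27 and 19, close to these values. It had 177 in replicate 28, 0 and 3 in replicates 17 and 18, and 64, 93 and 6 in the TAA libraries. Whether the same reads were counted at both copies was not tested. The deposited gene value of Cyp3a41a equals the larger of its placed copies, and Cyp3a41b itself was listed at 0 in all libraries.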

How the results depend on the processing

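The family sum was above TAA under every alternative run. Against TAA it ranged from 0.37 to 0.69 on the log2 scale at 5 weeks (0.39 to 0.72 with single libraries left out), and from 0.23 to 0.82 at 2 weeks (0.42 to 0.71). For any rhCYGB it ranged from 0.30 to 0.59 (0.46 to 0.69), with DESeq2 at 0.59 and past the threshold. DESeq2 called 1 member at 5 weeks and 1 for any rhCYGB, and leaving out replicates 17, 18 and 23 together also called 1 for any rhCYGB. Between 5 and 2 weeks the sum was -0.0102 with upper quartile scaling, -0.41 without those 3 libraries, and -0.16 to 0.18 with single libraries left out. Without the 3, Cyp3a13 was at -0.20, Cyp3a25 at -0.0778, Cyp3a41a at -0.0507, Cyp3a44 at -0.68 and Cyp3a59 at -0.22 in that comparison, and Cyp3a11 was at 0.0048 with DESeq2, 0.10 with library totals, 4e-04 with the compared groups alone, 0.11 with log2(FPKM + 1) and with log2(FPKM + 0.1), and 0.10 with the length trend removed. At 5 weeks against TAA, Cyp3a16 was at -0.20 (library totals), -0.0666 (upper quartile), -0.10 and -0.19 (FPKM + 1 and + 0.1) and -0.0546 (without the 3). At 2 weeks, Cyp3a44 was at -0.0675 (library totals), -0.13 and -0.14 (FPKM + 1 and + 0.1), Cyp3a59 at -0.013 and -0.014 (the same), and Cyp3a41a at 0.80 (transcript counts) and 1.45 (without the 3). The share of Cyp3a25 for any rhCYGB minus TAA was 0.0067 points in counts. The cause was not tested.

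With single libraries left out, Cyp3a11 between 5 and 2 weeks ran from -0.19 to 0.14, Cyp3a44 there from -0.0307 to 0.81, Cyp3a16 at 5 weeks from -0.0812 to 0.16, Cyp3a41a at 2 weeks from -5.06 to 0.46 and Cyp3a44 at 2 weeks from -0.23 to 0.55. Shares for any rhCYGB minus TAA ran from -0.36 to 1.17 points for Cyp3a11, -0.52 to 0.0457 for Cyp3a13, -0.60 to 0.41 for Cyp3a25 and -0.0059 to 0.0043 for Cyp3a41a. The number of genes called was unstable: 190 at 5 weeks against 0 to 240 with single libraries left out and 1 to 1188 otherwise, 488 at 2 weeks against 1 to 1095 and 12 to 1983, 3 between the rhCYGB groups against 1 to 1889 and 0 to 788, and 295 for any rhCYGB against 0 to 662 and 240 to 1641. No paired analysis was possible because the groups share no replicate number. Depth limits only Cyp3a16 and Cyp3a41a, whose counts are at or below 177 estimated reads.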

Other observations

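A non-coding variant of Cyp3a25 carried 2.12% to 3.06% of the FPKM of that gene over the 9 libraries, highest in rhCYGB 5 weeks replicate 23. Cyp3a59 stood at 9.10, 7.39 and 6.80 FPKM per 100 FPKM of Cyp3a25 in rhCYGB 5 weeks, at 7.41, 8.05 and 7.85 in rhCYGB 2 weeks, and at 7.82, 8.98 and 7.61 in TAA, so the groups overlapped.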
